A study of Mus musculus with 6 samples.

Results

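The unfolded protein and integrated stress response genes described here are a list of 35 named genes among 10347 genes with a tested probe set. They were chosen for their place in these pathways, with earlier results of these data known. A gene was taken from a probe set that the array annotation assigns to exactly 1 symbol, and where a gene had several such probe sets, the one with the highest mean over the 6 arrays stood for it. All 35 genes had such a probe set, 0 were at the lowest value of the table (5 on the log2 scale, here called the floor) on all arrays, and 33 were above it on all 6. By role the list held 14 chaperones and folding factors of the endoplasmic reticulum (ER), 8 factors of ER-associated degradation (ERAD), 7 stress sensors and transcription factors, and 6 targets of the transcription factors ATF4 and CHOP.

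The livers came from 3 TLR3-/- mice and 3 TLR3wt mice of C57Bl/6 background, bred in house under specific-pathogen-free conditions, aged 3 months and without any treatment. Whole-liver RNA of each mouse was put on 1 array. The sources used here do not say how the Tlr3 allele was made. Signal for Tlr3 itself was at the floor in every TLR3-/- and every TLR3wt liver, so the arrays gave no check of the genotype. The question is what the Tlr3 genotype changes in the resting liver.

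TLR3 senses double-stranded RNA in endosomes. The unfolded protein response is the set of pathways by which a cell that makes many secreted proteins, as a hepatocyte does for plasma, matches its ER folding capacity to its load. The sensors ATF6 and IRE1 (gene Ern1), which splices the Xbp1 mRNA, turn on ER chaperones and ERAD factors, and PERK (gene Eif2ak3) phosphorylates eIF2alpha, which lowers general translation and favours that of ATF4. ATF4 is also reached through other eIF2alpha kinases, for example in amino acid shortage, and the branch as a whole is called the integrated stress response.

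Between 15081 and 15226 probe sets exceeded the floor per array, and correlations between arrays over the tested probe sets were 0.984 to 0.991 within and 0.980 to 0.988 between the groups. A pair of livers stood apart in single genes. TLR3wt replicate 3 lay more than 0.5 (log2 signal) above all other livers in 69 of the 10347 genes, of which 1 was a stress response gene (Asns). TLR3-/- replicate 2 did so in 33 genes, of which 11 were stress response genes. The results below are therefore also given without TLR3-/- replicate 2.

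No stress response gene passed the test between the genotypes. Of the 35 genes, 0 passed limma's test at an adjusted p of 0.05 over all 16639 tested probe sets, where 31 probe sets (0.186%) passed, 23 of them higher (0.138%) and 8 lower (0.0481%) in TLR3-/- livers. At an unadjusted p under 0.05 there were 2 genes, Herpud1 with the lower and Trib3 with the higher mean in TLR3-/- livers, which is 5.71% of the list against 14.5% of all tested probe sets. The same 2 genes were the ones whose groups did not overlap, again 5.71% of the list, against 20.1% of all tested probe sets. The mean was higher in TLR3-/- livers for 23 genes (65.7%) and lower for 12, with a median log2 difference (TLR3-/- minus TLR3wt) of 0.04, beside 60.9% higher and a median of 0.03 over all tested genes.

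The largest variation lay in 1 liver. In TLR3-/- replicate 2, 21 of the 35 genes (60.0%) had their highest value of all 6 livers, while the same liver held the highest value in 21.0% of all tested genes. By more than 0.5 on the log2 scale it exceeded the other 5 livers in 11 stress response genes (31.4% of them) and in 0.319% of all tested genes, so the list supplied 33.3% of the genes in which this liver stood that far out. Derl3, Creld2 and Syvn1 were 3 of the 4 genes in which it did so by more than 1. In the remaining livers the number of stress response genes exceeding all others by more than 0.5 was 0 in TLR3-/- replicates 1 and 3, 0 in TLR3wt replicates 1 and 2, and 1 in TLR3wt replicate 3. The 35 genes were chosen with earlier results of these data known, and these thresholds after the values were seen. The counts are a description of 6 livers with no test.

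**Figure D1:**
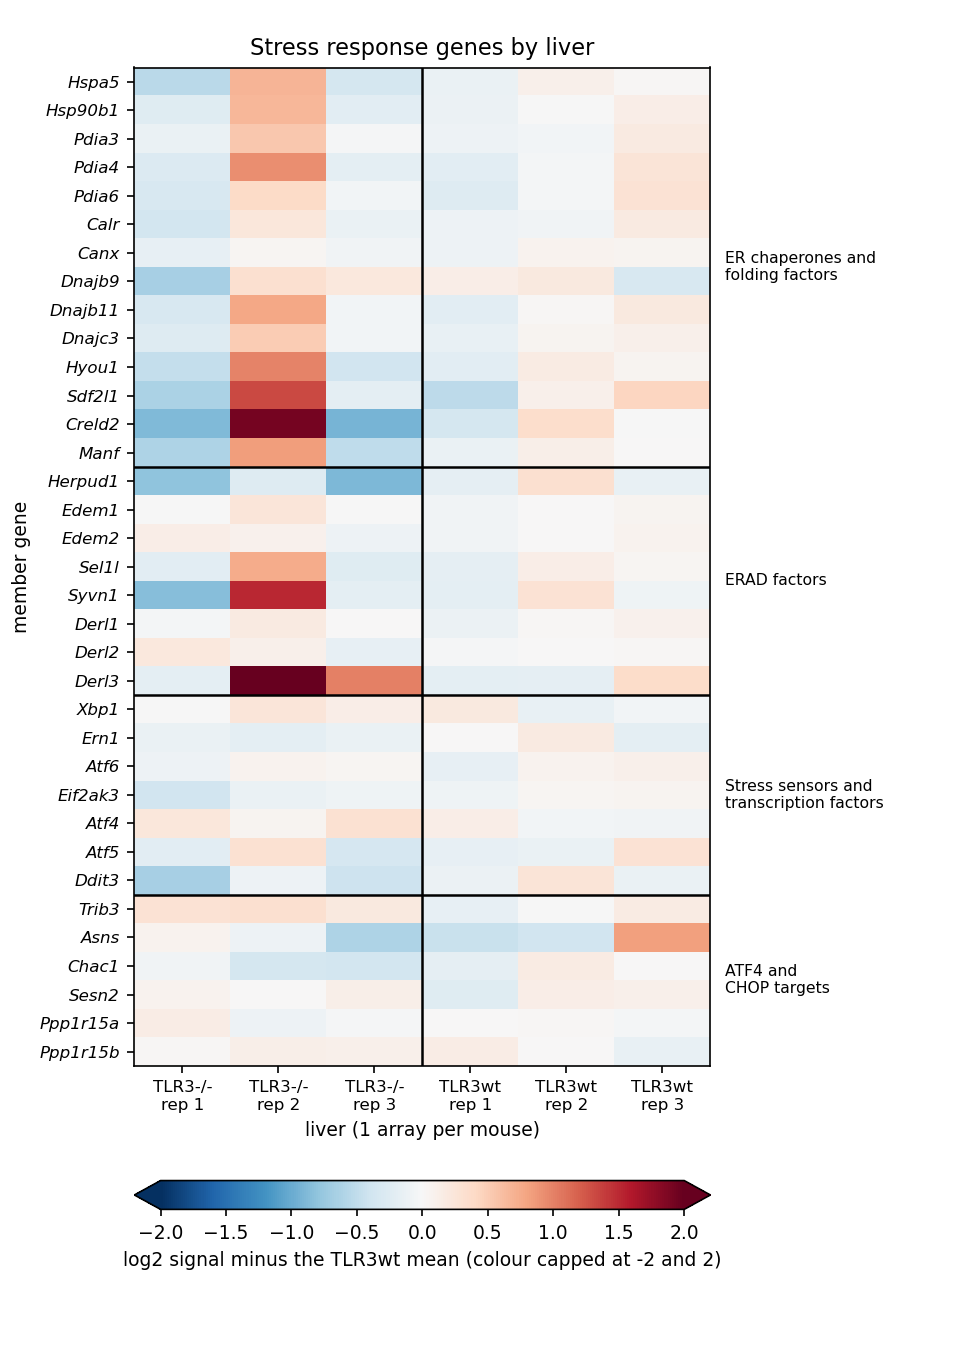
Heat map of the 35 stress response genes (rows, by role) in the 6 livers (columns, TLR3-/- left of TLR3wt). Colour gives the log2 signal minus the TLR3wt mean of the gene. TLR3-/- replicate 2 holds the highest value in 21 of the 35 rows, 13 of them among the 14 ER chaperones and folding factors.

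Among the ER chaperones the pattern was nearly uniform. Of 14 genes, 13 were highest in TLR3-/- replicate 2 and 13 were lowest in TLR3-/- replicate 1, so that both ends of the range lay within the TLR3-/- group and the TLR3wt livers lay between them. The exceptions were Canx, which encodes the lectin chaperone calnexin, with its highest value in TLR3wt replicate 2, and Creld2, with its lowest in TLR3-/- replicate 3. The mean of the 14 genes, relative to their TLR3wt mean, was -0.42, 0.72 and -0.21 in TLR3-/- replicates 1, 2 and 3, against -0.18, 0.07 and 0.11 in TLR3wt replicates 1, 2 and 3 (log2). By the group means 9 genes were higher and 5 lower in TLR3-/- livers, with differences from -0.09 to 0.16, and 0 passed.

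Hspa5 encodes BiP, the central Hsp70 chaperone of the ER and the repressor of its stress sensors. Its log2 signal was 10.71, 11.94 and 10.90 in TLR3-/- replicates 1, 2 and 3, against 11.13, 11.35 and 11.29 in TLR3wt replicates 1, 2 and 3. TLR3-/- replicate 2 was above every TLR3wt liver and the other TLR3-/- livers were below every one, so the groups overlapped although no single TLR3-/- liver fell within the TLR3wt range. The difference of the means was -0.07 (SE 0.31, limma adjusted p = 0.939). Both BiP partners that follow were likewise highest in TLR3-/- replicate 2. Hyou1, its nucleotide exchange factor, was at 9.08, 10.55 and 9.19 in TLR3-/- livers, against 9.35, 9.72 and 9.62 in TLR3wt livers. Sdf2l1, which forms a complex with BiP and the co-chaperone Dnajb11, was at 7.66, 9.62 and 8.10 in TLR3-/- livers, against 7.78, 8.40 and 8.72 in TLR3wt livers. For Hyou1, again, each TLR3-/- liver lay outside the TLR3wt range, with 1 above it and 2 below.

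Creld2, an ER-resident protein with disulfide isomerase activity, showed the widest spread. It was at 7.40, 10.20 and 7.34 in TLR3-/- replicates 1, 2 and 3, against 7.93, 8.63 and 8.27 in TLR3wt replicates 1, 2 and 3. TLR3-/- replicate 2 was 2.97-fold above the next liver, and the TLR3-/- livers had a standard deviation of 1.63 against 0.35 in TLR3wt livers, which ranked 1 of 10347 genes by the spread among TLR3-/- livers. Its group difference was 0.04 (SE 0.78, limma adjusted p = 0.987). Manf, an ER protein that can also be secreted, was at 7.12, 8.58 and 7.24 in TLR3-/- livers, against 7.62, 7.87 and 7.75 in TLR3wt livers. It was likewise highest in TLR3-/- replicate 2, but lowest in TLR3-/- replicate 1.

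The remaining chaperone genes differed mainly in how far TLR3-/- replicate 2 stood out. It exceeded the next liver by 0.68 for the disulfide isomerase gene Pdia4, by 0.58 for Dnajb11, by 0.52 for the Hsp90 paralogue gene Hsp90b1, by 0.41 for the BiP co-chaperone gene Dnajc3 and by 0.36 for Pdia3 (log2). For Dnajb9, Pdia6 and the calreticulin gene Calr the same margin was 0.11, 0.09 and 0.05. A second Pdia4 probe set, at a lower level, had a difference of -0.39 between the groups against 0.15 for the one used, and was highest in TLR3wt replicate 2. The pair of Dnajc3 probe sets carried identical values and counted once.

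The ERAD genes differed among themselves, and 5 of the 8 were highest in TLR3-/- replicate 2. Syvn1, the gene of the ubiquitin ligase HRD1, was at 7.43, 9.79 and 8.08 in TLR3-/- replicates 1, 2 and 3, against 8.08, 8.56 and 8.18 in TLR3wt replicates 1, 2 and 3, and its adaptor gene Sel1l was at 8.97, 9.92 and 8.94 in TLR3-/- livers, against 9.01, 9.32 and 9.22 in TLR3wt livers. TLR3-/- replicate 2 was the highest liver for both, 2.34-fold and 1.52-fold above the next. Derl3, a derlin of the ER membrane, was at 5, 8.20 and 6.21 in TLR3-/- livers, against 5, 5.02 and 5.57 in TLR3wt livers. Here 1 TLR3-/- and 1 TLR3wt liver stood at the floor, TLR3-/- replicate 2 was 3.96-fold above the next liver and TLR3-/- replicate 3 came second. The difference of 1.27 (SE 0.77, limma adjusted p = 0.502) was the largest of the list and was 0.41 without TLR3-/- replicate 2.

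The other ERAD genes varied less. Edem1 and Edem2, whose products help to trim mannose from misfolded glycoproteins, and Derl1 and Derl2 had group differences of 0.03 to 0.08, with limma adjusted p between 0.734 and 0.881. Their standard deviations among TLR3-/- livers were 0.12 to 0.20, beside 0.56 for Sel1l and 1.22 for Syvn1. The mean of the 8 ERAD genes in TLR3-/- replicate 2, relative to TLR3wt, was 0.70, but 0.37 without Derl3 and 0.18 without Derl3 and Syvn1. Single genes in that liver ran from -0.26 (Herpud1) to 3.00 (Derl3).

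**Figure D2:**
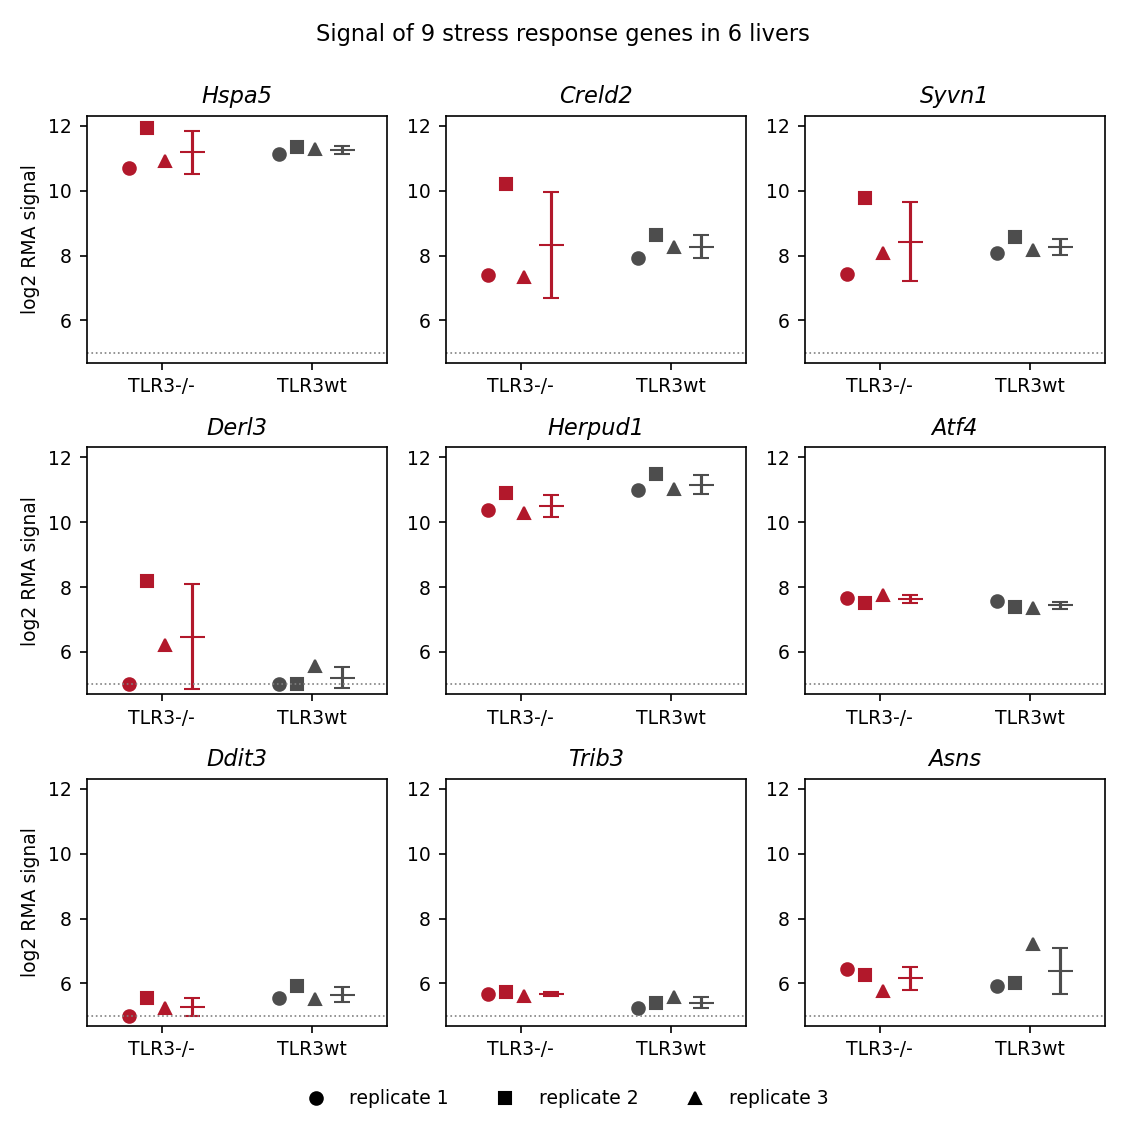
Log2 RMA signal of 9 stress response genes in each liver (symbols, 1 per mouse), with the mean and standard deviation of each group (n = 3) beside them and the floor of 5 as a dotted line. Creld2, Syvn1 and Derl3 are widest in TLR3-/- livers, Herpud1 and Trib3 are the genes whose groups do not overlap, and Asns is widest in TLR3wt livers.

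The promoters of these genes are shown because many of these genes were high in the same liver, and because many ER chaperone genes carry the ER stress response element, the sequence bound by ATF6 with NF-Y. Sequences are from RefSeq (GRCm38.p6), 250 bases before to 50 after the start, and 30 of the 35 genes were matched (Hyou1, Manf, Derl1, Atf6 and Ppp1r15b were not). The element, searched on both strands as CCAAT, any 9 bases and CCACG, was found in 9 of the 30 genes (Hspa5, Hsp90b1, Pdia6, Calr, Canx, Dnajc3, Creld2, Syvn1 and Derl3) and in 0.119% of the 32851 promoters of the table. Its last part, CCACG, was found in 25 of the 30 genes and in 32.8% of all promoters. Capitals mark the full element in the 4 promoters below, of the BiP gene and of the 3 genes in which TLR3-/- replicate 2 stood out most, at chr2:34771840-34772139 (Hspa5), chr15:88819396-88819695 (Creld2), chr10:75893148-75893447 (Derl3) and chr19:6046326-6046625 (Syvn1), all on the plus strand.
Hspa5: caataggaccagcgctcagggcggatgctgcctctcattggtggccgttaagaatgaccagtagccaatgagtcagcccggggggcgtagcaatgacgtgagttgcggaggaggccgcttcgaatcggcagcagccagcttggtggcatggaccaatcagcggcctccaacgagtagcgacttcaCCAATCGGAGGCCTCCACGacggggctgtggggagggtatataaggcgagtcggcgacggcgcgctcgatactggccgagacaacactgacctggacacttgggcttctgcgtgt
Creld2: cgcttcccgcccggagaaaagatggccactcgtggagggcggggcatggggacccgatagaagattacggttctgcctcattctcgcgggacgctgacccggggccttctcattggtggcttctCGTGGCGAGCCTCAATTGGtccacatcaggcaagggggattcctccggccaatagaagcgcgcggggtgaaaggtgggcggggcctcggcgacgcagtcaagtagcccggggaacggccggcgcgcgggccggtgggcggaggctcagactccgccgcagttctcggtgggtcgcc
Derl3: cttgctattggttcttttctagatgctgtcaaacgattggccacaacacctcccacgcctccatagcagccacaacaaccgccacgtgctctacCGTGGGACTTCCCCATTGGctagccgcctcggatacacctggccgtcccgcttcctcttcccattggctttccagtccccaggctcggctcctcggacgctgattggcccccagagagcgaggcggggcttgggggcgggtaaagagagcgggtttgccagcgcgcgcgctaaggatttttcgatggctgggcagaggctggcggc
Syvn1: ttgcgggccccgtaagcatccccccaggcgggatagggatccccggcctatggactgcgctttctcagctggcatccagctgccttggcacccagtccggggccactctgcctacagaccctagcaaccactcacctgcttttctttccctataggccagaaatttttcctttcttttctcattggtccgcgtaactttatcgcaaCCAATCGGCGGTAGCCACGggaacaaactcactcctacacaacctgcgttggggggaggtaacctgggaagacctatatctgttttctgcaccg
In Hspa5 and Syvn1 the element read in the direction of the gene, and in Creld2 and Derl3 on the other strand. The 9 genes with the element had margins of TLR3-/- replicate 2 over the next liver from -0.02 to 1.99, with a median of 0.52, and 5 of them exceeded 0.5. The 21 matched genes without it ran from -0.93 to 0.90, with a median of -0.05, and 4 of them exceeded 0.5. The 21 are mostly sensors, ATF4 targets and ERAD genes, so this contrast mixes element and role. Among the matched ERAD genes, Derl3 and Syvn1 carry the element and had margins of 1.99 and 1.23. Those without it ran from -0.59 (Herpud1) to 0.60 (Sel1l). Among the 12 matched chaperone genes, the 7 with the element had a median margin of 0.41 (-0.02 to 1.57). The 5 without it had one of 0.575 (0.11 to 0.90). Dnajb11, among these 5, carries a second form of the element, described below with Herpud1. Whether the element has a part in the margins was not tested. A match is a description of these letters and not a measured site.

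Herpud1 was the 1 ERAD gene whose groups did not overlap. Its product is a membrane protein that organises the HRD1 complex, and the gene is a target of both the ATF6 and the ATF4 branch. It was at 10.36, 10.90 and 10.27 in TLR3-/- replicates 1, 2 and 3, against 10.99, 11.49 and 11.01 in TLR3wt replicates 1, 2 and 3. All TLR3-/- livers were below all TLR3wt livers, TLR3-/- replicate 2 included. The difference was -0.65 (SE 0.21, limma adjusted p = 0.256, unadjusted p = 0.0205), and it lay between -0.84 and -0.49 under all 14 alternatives with limma adjusted p of 0.204 to 0.481. Herpud1 thus did not pass. The gene lies on chromosome 8 as Tlr3 does, with 225 tested genes between them. Calr lies nearer to Tlr3, with 167 tested genes between. It differed by -0.09 (limma adjusted p = 0.827), and by -0.25 without TLR3-/- replicate 2. For Herpud1 an effect of neighbouring sequence inherited with the allele cannot be told apart from one of TLR3 itself. The value of Calr does not separate these.

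The Herpud1 promoter is shown because it is built unlike those above. The full element was not found in this window, while a second form of it, ATTGG, any 1 base and CCACG, was found in Herpud1 and Dnajb11 and in 0.0365% of all promoters. This form was added to the search after the values were seen. The ATF4 element, searched as TGATGNAAN on both strands, was found in Herpud1, Asns, Chac1 and Trib3 and in 3.95% of all promoters. Both are in capitals, the ATF4 element first, at chr8:94386179-94386478 on the plus strand.
Herpud1: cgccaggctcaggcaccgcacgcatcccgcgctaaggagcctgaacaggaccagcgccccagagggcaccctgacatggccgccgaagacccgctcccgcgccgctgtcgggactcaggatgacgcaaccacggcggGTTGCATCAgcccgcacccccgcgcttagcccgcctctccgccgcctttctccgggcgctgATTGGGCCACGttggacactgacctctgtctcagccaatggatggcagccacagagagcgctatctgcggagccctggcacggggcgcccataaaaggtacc

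The stress sensors and transcription factors did not share the excess of TLR3-/- replicate 2. The mean of the 7 genes relative to TLR3wt was -0.18, 0.04 and -0.07 in TLR3-/- replicates 1, 2 and 3, against -0.03, 0.03 and 0.00 in TLR3wt replicates 1, 2 and 3, and the median group difference was -0.08. Xbp1, whose spliced mRNA encodes the factor that drives ERAD genes, was at 9.45, 9.70 and 9.60 in TLR3-/- livers, against 9.66, 9.32 and 9.41 in TLR3wt livers. The groups overlapped (difference 0.12, SE 0.11, limma adjusted p = 0.681), and the probe set value does not separate the spliced from the unspliced mRNA. Atf6 differed by 0.00, Ern1 by -0.15 and the PERK gene Eif2ak3 by -0.20, and none of them passed (limma adjusted p = 0.996, 0.531 and 0.401).

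Atf4 was at 7.669, 7.498 and 7.742 in TLR3-/- replicates 1, 2 and 3, against 7.563, 7.379 and 7.366 in TLR3wt replicates 1, 2 and 3, a difference of 0.20 (SE 0.09, limma adjusted p = 0.376). The highest TLR3wt liver lay between the TLR3-/- livers. ATF4 is controlled largely at translation, so its mRNA gives a partial view of the branch. Ddit3, the gene of the pro-apoptotic factor CHOP, stood near the floor at 5, 5.56 and 5.25 in TLR3-/- livers, against 5.54, 5.92 and 5.52 in TLR3wt livers. The groups overlapped by a narrow margin, with TLR3-/- replicate 1 at the floor (difference -0.39, SE 0.17, limma adjusted p = 0.373). Atf5, which acts downstream of ATF4 and is abundant in liver, was at 8.62, 9.14 and 8.49 in TLR3-/- livers, against 8.68, 8.71 and 9.12 in TLR3wt livers, with overlapping groups.

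The ATF4 and CHOP targets had no common order of livers. Their mean relative to TLR3wt was 0.09, -0.02 and -0.10 in TLR3-/- replicates 1, 2 and 3, against -0.145, -0.01 and 0.15 in TLR3wt replicates 1, 2 and 3, and of the 6 genes 1 was highest in TLR3-/- replicate 2. Of these, 4 had higher and 2 lower means in TLR3-/- livers, with a median difference of 0.04. Trib3, a pseudokinase that ATF4 and CHOP induce and that restrains AKT signalling, was at 5.69, 5.73 and 5.61 in TLR3-/- livers, against 5.24, 5.41 and 5.58 in TLR3wt livers. All TLR3-/- livers were above all TLR3wt livers, with 0.03 between the nearest pair, at signals little above the floor (difference 0.27, SE 0.10, limma adjusted p = 0.291, unadjusted p = 0.0306). Chac1, a glutathione-degrading enzyme that the same branch induces, had the lower mean in TLR3-/- livers, at 5.64, 5.36 and 5.33 in TLR3-/- livers, against 5.53, 5.87 and 5.71 in TLR3wt livers (difference -0.26, SE 0.12, limma adjusted p = 0.385).

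Trib3 is shown with its promoter because it was the 1 gene of the higher direction whose groups did not overlap. The window lies at chr2:152344011-152344310 on the minus strand, and the ATF4 element, in capitals, falls after the start.
Trib3: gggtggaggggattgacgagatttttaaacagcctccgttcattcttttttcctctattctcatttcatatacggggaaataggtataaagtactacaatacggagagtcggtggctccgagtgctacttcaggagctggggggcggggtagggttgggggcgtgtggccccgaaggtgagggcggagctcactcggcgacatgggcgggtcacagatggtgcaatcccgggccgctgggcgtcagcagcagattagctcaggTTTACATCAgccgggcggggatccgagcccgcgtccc

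Asns, which makes asparagine and is a standard readout of ATF4, varied most within the TLR3wt group. It was at 6.45, 6.27 and 5.76 in TLR3-/- replicates 1, 2 and 3, against 5.94, 6.00 and 7.21 in TLR3wt replicates 1, 2 and 3. TLR3wt replicate 3 was 0.76 above the next liver, and the difference of -0.22 (SE 0.37, limma adjusted p = 0.827) was 0.19, of the opposite sign, without that liver. Sesn2, a stress-induced regulator of mTORC1, and the eIF2alpha phosphatase subunit genes Ppp1r15a and Ppp1r15b had differences of 0.06, 0.01 and 0.08, with limma adjusted p between 0.726 and 0.959. A second Ppp1r15b probe set, closer to the floor, had a difference of -0.17.

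**Figure D3:**
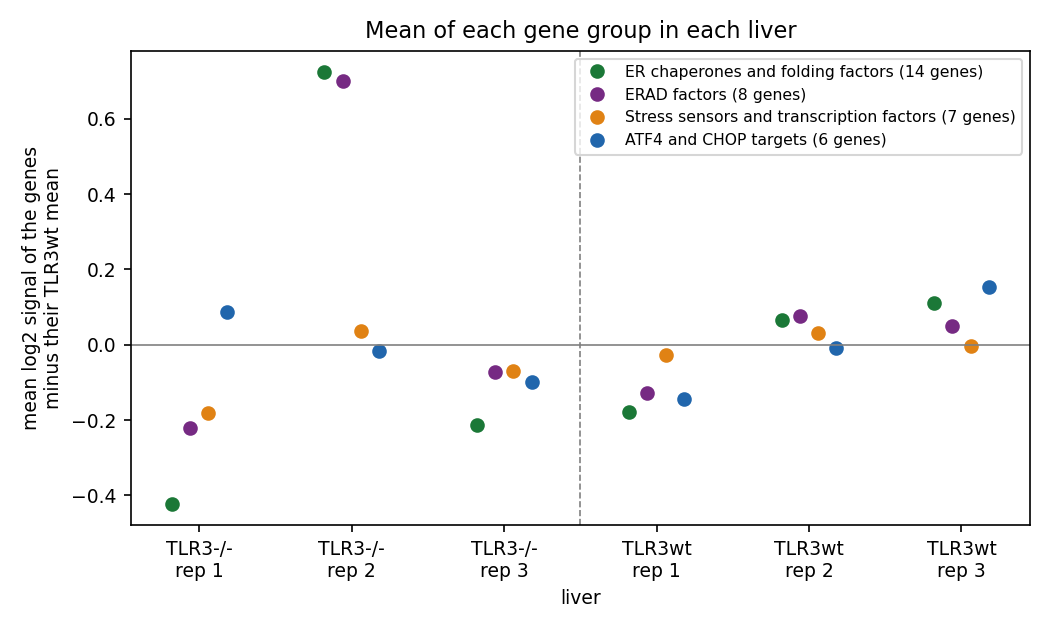
Mean log2 signal of each gene group in each liver, relative to the mean of the same genes in TLR3wt livers (1 point per group and liver). The chaperones and the ERAD factors stand at 0.72 and 0.70 in TLR3-/- replicate 2, where the sensors and the ATF4 and CHOP targets stand at 0.04 and -0.02. The ERAD value rests largely on Derl3 and Syvn1 and is 0.37 without Derl3.

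The spread within the groups was unequal for this list. The standard deviation was larger among TLR3-/- than among TLR3wt livers in 28 of the 35 genes (80.0%), beside 47.2% of all tested genes. It exceeded 0.5 among TLR3-/- livers in 12 stress response genes (34.3%) and in 0.802% of all tested genes, and among TLR3wt livers in 1 stress response gene (Asns) and in 1.1% of all tested genes. Creld2, Derl3 and Syvn1 ranked 1, 2 and 3 of 10347 genes by the spread among TLR3-/- livers, and Sdf2l1 ranked 8. The 12 genes were Dnajb9 and the 11 in which TLR3-/- replicate 2 exceeded all other livers by more than 0.5. The wider spread thus largely restates the values of that 1 liver. With 3 mice per group the difference in spread was not tested.

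Without TLR3-/- replicate 2 the comparison read differently. All 14 chaperones then had the lower mean in TLR3-/- livers, 9 of them after a turn of sign, and their median difference was -0.23. Over the list 26 genes (74.3%) were lower, against 4220 of all 10304 genes tested without this liver, the median was -0.19, and 14 genes had turned. Still 0 of the 35 genes passed limma's adjusted p, and 7 (20.0%) had an unadjusted p under 0.05, beside 10.8% of all probe sets tested without this liver. These were Manf (-0.56), Herpud1 (-0.84), Creld2 (-0.91), Hspa5 (-0.45), Ddit3 (-0.535) and Hyou1 (-0.43) on the lower side and Atf4 (0.27) on the higher, with limma adjusted p from 0.253 to 0.394. The ATF4 and CHOP targets kept their signs, with a median of 0.06. This fit rests on 2 TLR3-/- livers, and leaving out TLR3-/- replicate 1 in its place gave a chaperone median of 0.24.

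**Figure D4:**
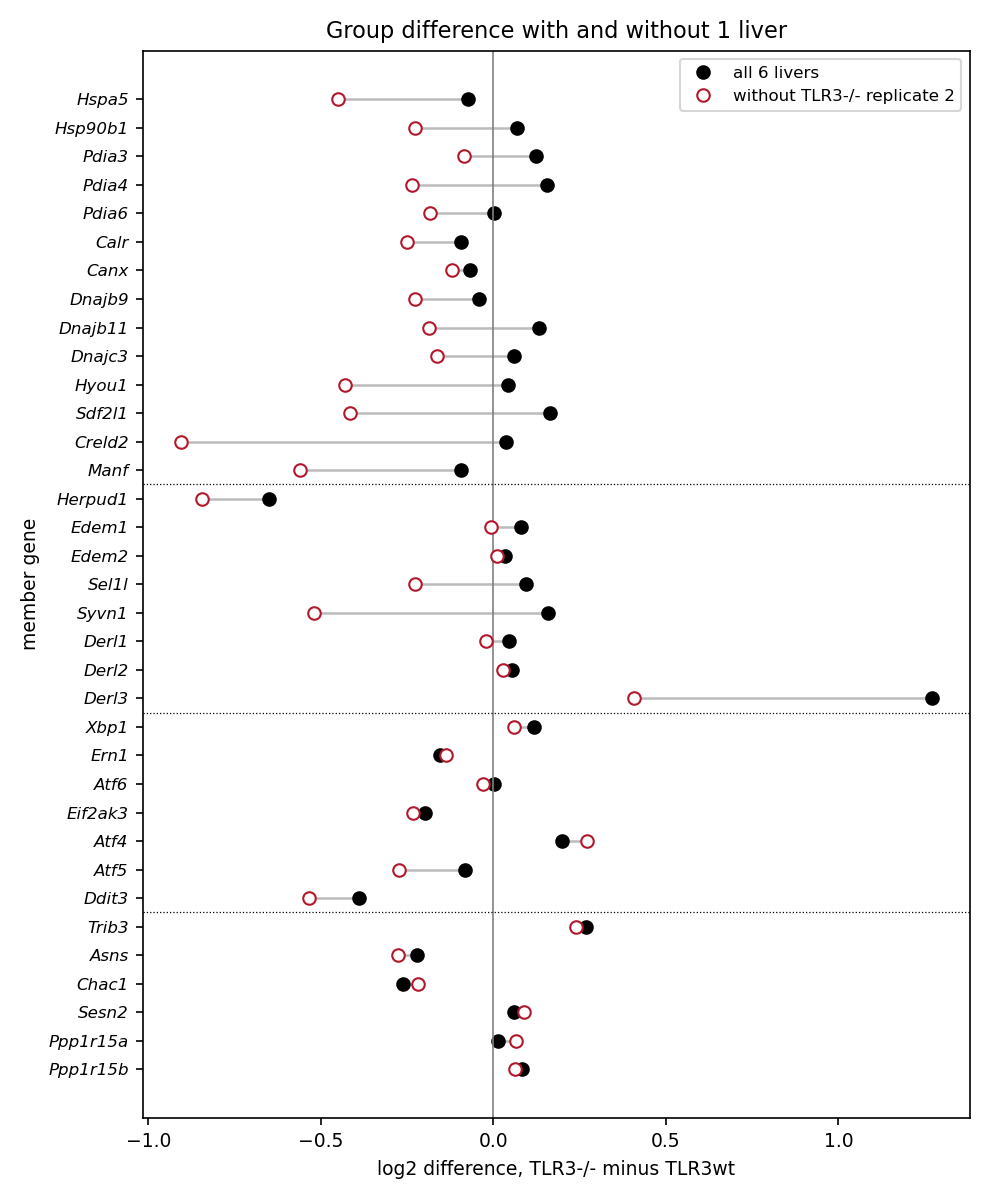
Log2 difference (TLR3-/- minus TLR3wt) of each stress response gene with all 6 livers (filled) and without TLR3-/- replicate 2 (open). The sign turned for 14 genes, 9 of them among the 14 chaperones, while Herpud1 stayed lower at -0.65 and -0.84.

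Other genes of the secretory pathway, from lists that share no gene with the 35, were also often highest in TLR3-/- replicate 2. Of 15 genes of COPII vesicles and ER export, 13 were highest in TLR3-/- replicate 2, with means relative to TLR3wt of -0.01, 0.19 and 0.02 in TLR3-/- replicates 1, 2 and 3, against 0.01, 0.02 and -0.03 in TLR3wt replicates. The same held for 11 of 24 further ER folding and glycoprotein quality control genes. It also held for 8 of 16 genes of translocation and signal peptide cleavage and 7 of 15 further ERAD genes. Over all tested genes this share was 21.0%. Of 15 further ATF4 targets, which are not a secretory list, 1 was highest in that liver. The margin over the next liver exceeded 0.5 in 1 gene of these lists and of the aminoacyl-tRNA synthetases, Wars, named after its value was seen.

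Between the genotypes, 0 genes of these lists passed, and the smallest limma adjusted p was 0.147 (Cars, a cytosolic aminoacyl-tRNA synthetase gene, difference -0.56). Of 22 further ATF4 targets listed, 15 had a tested probe set. Among these, 3 had higher and 12 lower means in TLR3-/- livers, with a median difference of -0.16. The amino acid transporter gene Slc38a2, the hormone gene Fgf21 and the mTORC1 inhibitor gene Ddit4 had the smallest unadjusted p among them, with differences of -0.58, -0.67 and -0.50 (limma adjusted p = 0.172, 0.199 and 0.216). The groups did not overlap for these 3, which were picked by their p. Over the 15 genes, groups did not overlap in 6 with lower and 1 with higher values in TLR3-/- livers. The share without overlap was 20.1% of all tested probe sets. Mthfd2, among the 6, and Aldh18a1, among the 12 with lower means, were at the floor in every TLR3-/- liver. Both were tested only through TLR3wt livers and could only come out lower, so these counts are no support for a direction. Phgdh, Slc7a1 and Nupr1 were at the floor in part of the livers of both groups. Fgf21 was at 5, 5.06 and 5 in TLR3-/- livers, against 5.35, 5.64 and 6.10 in TLR3wt livers, with 2 TLR3-/- livers at the floor. Of the 16 synthetase genes, Cars included, 8 had higher and 8 lower means, with a median of 0.00. Besides Cars, Vars was the 1 synthetase gene with an unadjusted p under 0.05 (-0.24, limma adjusted p = 0.172). Both had TLR3-/- livers below all TLR3wt livers, and they were the 2 of the 16 synthetase genes whose groups did not overlap. The genes of eIF2, its kinases and its exchange factor had 7 higher and 3 lower means, with a median of 0.07.

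In the ER lists the genes with the smallest unadjusted p were Fkbp11 (-0.45), a prolyl isomerase gene of secretory cells, Sec61b (-0.18), a subunit of the translocon, Rnf5 (0.23), an ERAD ubiquitin ligase, Sec24a (0.15), a COPII coat gene, and Mbtps1 (0.19), the site-1 protease that cleaves ATF6. For Fkbp11 and Sec61b all TLR3-/- livers were below all TLR3wt livers, and for Rnf5, Sec24a and Mbtps1 all were above. By list, groups did not overlap in 1 of 24 folding genes (lower) and in 2 higher and 2 lower of 16 translocation genes. They did not overlap in 3 of 15 ERAD, 2 of 15 export and 2 of 7 factor and protease genes, all higher. Over all tested probe sets the share was 20.1%. Medians over these lists were -0.01 for folding, 0.01 for translocation, 0.07 for ERAD, 0.04 for ER export and 0.08 for transcription factors and proteases. The heat shock genes taken for comparison were cytosolic apart from the mitochondrial Hspd1 and Hspe1 (-0.10 and -0.06). These genes had 1 higher and 8 lower means with a median of -0.40, among them Dnajb1 (-0.88, limma adjusted p = 0.167). Their means in TLR3-/- replicates 1, 2 and 3 were -0.67, 0.04 and -0.50, against -0.01, 0.29 and -0.28 in TLR3wt replicates, so TLR3-/- replicate 2 was the highest TLR3-/- liver here as well but within the TLR3wt range.

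Markers of other cell types moved with the groups in part. In whole liver, fewer cells of a type and less RNA per cell cannot be told apart. All 10 Kupffer cell and macrophage markers had lower means in TLR3-/- livers, with a median difference of -0.87, a summed log2 level of 63.40 to 69.37 in TLR3-/- livers and of 73.20 to 77.75 in TLR3wt livers, and their lowest value in TLR3-/- replicate 2 in all 10, although 0 of the 10 passed. Their part in the Herpud1 difference and in the values of TLR3-/- replicate 2 was not tested. Hepatocyte markers summed to 84.66 to 84.90 in TLR3-/- livers and 85.11 to 85.55 in TLR3wt livers. Of the 7, 2 had higher means in TLR3-/- livers, Cyp2e1 (0.25) among them. The other 5 had lower means, Tat (-0.39) and Hnf4a (-0.26) among them. Most markers of B and plasma cells and of pancreatic acinar cells, types that include cells rich in ER, were at the floor. Of 9 B and plasma cell markers with a probe set 8 were at the floor on all arrays, Jchain, Mzb1 and the B cell receptor gene Cd79a among them, and Sdc1 was the 1 above it, with a summed level of 48.22 to 48.31 in TLR3-/- and 48.29 to 48.67 in TLR3wt livers. Of 7 acinar markers 6 were at the floor on all arrays, Cpa1, Prss2 and Ctrb1 among them. The 1 above it, Cela1, was at 5.83, 5.85 and 5.88 in TLR3-/- livers, against 5.36, 5.47 and 5.55 in TLR3wt livers (difference 0.39, limma adjusted p = 0.112). A part of such cells in the values of TLR3-/- replicate 2 was not tested. All 6 neutrophil markers were at the floor on all arrays, as were 5 of 6 T and NK cell markers. Endothelial, stellate cell and cholangiocyte markers overlapped between the groups in their summed levels, at 36.21 to 37.33, 34.97 to 35.54 and 20.56 to 20.84 in TLR3-/- livers, against 36.92 to 38.30, 34.88 to 35.53 and 20.13 to 21.06 in TLR3wt livers. Single markers went both ways. Lyve1 (-0.56), Pecam1 (-0.24) and the stellate cell marker Col1a1 (-0.49) had all TLR3-/- livers below all TLR3wt livers. Means were higher in TLR3-/- livers for 2 of 5 endothelial and 3 of 4 measured stellate cell markers, and 0 passed.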

How the data were processed

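Total liver RNA of 3 TLR3-/- and 3 TLR3wt mice was measured on 1 array per mouse; groups and replicates follow the sample titles. The deposited values are log2 RMA signals that the authors made with Expression Console (Affymetrix), per the submitters' processing notes. No source used here says what set their floor of 5. The table holds 35557 probe sets and 0 columns of other samples. Names came from the array annotation, updated by gene identifier to GRCm38.p6 (99.6% found); 21789 probe sets had 1 symbol.

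Leaving out the 18918 probe sets at 5 throughout, 16639 remained and were tested with limma 3.58.1 in R 4.3.3 (lmFit, eBayes, group as the only term, two-sided, Benjamini-Hochberg over all tested). The fit was tested on simulated data. The 35 genes, the lists, the filter and the naming rule were chosen with earlier results of these data known, so list counts are descriptions. Values for every liver are given for genes with an unadjusted p under 0.05, non-overlapping groups or a hub role, and for genes in which 1 liver stood out, the last chosen after the values were seen. In the other lists up to 3 genes with the smallest p could be named. Protein sequences were not used here. Alternatives were other filters, normalisations, weights and priors, a replicate block, all probe sets of a gene, and leaving out each mouse. The sample titles do not say that replicate numbers pair the mice, and the main fit did not pair them. The number of arrays limits the precision.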

Additional observations from a re-analysis of the deposited data

How the results depend on the processing

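No stress response gene passed limma's adjusted p of 0.05 under any of the 14 alternatives (0 of 35 in each, 0 of 33 where every array had to exceed the floor; smallest adjusted p 0.199, Trib3 without TLR3wt replicate 3). The count over all probe sets was less stable. It was 31 as reported, 35 with array weights and 35 with a trended and robust prior. The count was lower under the other alternatives. It was 0 with all probe sets kept (2018 at an unadjusted p under 0.05) and 18 where every array had to exceed the floor. It was 9 after quantile normalisation again, 14 with arrays centred on the median, and 0 to 13 when 1 mouse was left out. With the replicate block it was 4, and 0 stress response genes were called with the block. The sample titles do not say that equal numbers pair the mice. Correlations of deviations from the group mean were 0.05, -0.01 and -0.06 for same-numbered mice, against -0.12 to 0.14 for other pairs. The median difference of the 35 genes ran from -0.19 to 0.16 when 1 mouse was left out, and that of the sensors and transcription factors from -0.15 to 0.05. The lowest of the first range came without TLR3-/- replicate 2 and the highest of the second without TLR3wt replicate 3. Of 488 values of single genes under alternatives, 50 had the opposite sign, in 25 genes, 14 of them without TLR3-/- replicate 2 and 9 without TLR3wt replicate 1. Ddit3, Derl3, Fgf21, Mthfd2, Aldh18a1, Phgdh, Slc7a1, Nupr1 and Bbc3 were at the floor in at least 1 liver, where their level has only an upper bound.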

Other observations

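The 33 genes in which TLR3-/- replicate 2 exceeded all other livers by more than 0.5 (log2 signal) held, beside 11 stress response genes, others of known role, all named after their values were seen. Among them were the PPARalpha-responsive genes Cyp4a31, Acot1, Cyp4a10, Vnn1 and Acot2, with margins of 1.34, 0.80, 0.78, 0.61 and 0.57 over the next liver. Genes of the secretory pathway were also present, namely the calcium-binding protein gene Nucb2 (0.70), the GDP-mannose enzyme gene Gmppb (0.66), the cargo receptor gene Tmed3 (0.61), Arfgap3 (0.54), which acts in Golgi transport, and the glycosylation enzyme gene Alg12 (0.53). The hormone genes of liver, Inhbe (0.67) and Angptl8 (0.50), were in the same set. In TLR3wt replicate 3 the corresponding set held 69 genes, led by Mt2, Saa2, Tff3 and Saa1 with margins of 3.47, 3.31, 3.11 and 3.03, and Asns was its 1 stress response gene.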
